A study of Mus musculus with 12 samples.

Results

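The comparison described here sets brain tumours grown in untreated old mice against brain tumours grown in untreated young mice. It uses 6 of the 12 RNA sequencing libraries of the study, 3 from old hosts aged 16 months and 3 from young hosts aged 2 months, numbered old 1 to 3 and young 1 to 3 as in the labels. Genes were included when they reached 1 CPM, a read count scaled to library size, in at least 3 of these 6 libraries, which kept 14684 of the 24054 genes in the deposited table. All hosts are labelled female C57BL/6 mice, and all received mouse tumour cells labelled ms7080 by injection into the striatum, while the protocol text calls the injected cells BC cells. Tumour tissue was taken once a mouse showed symptoms, and the labels do not state how long after injection this was. The extraction protocol says that RNA came from cells, so whether it was taken from whole tissue is not certain. The 6 libraries not compared here came from old hosts given nicotinamide mononucleotide or joined by parabiosis. Per the labels, young mice were bought from commercial breeders and old mice came from an ageing colony, so the age of the host and its source cannot be told apart.

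A tumour in the striatum holds the injected cells together with cells of the host. Striatal tissue consists of projection neurons that use the transmitter GABA, axons wrapped in myelin by oligodendrocytes, astrocytes that clear transmitter and potassium, vessels with a thin sleeve of fibroblasts, and microglia, which are the brain's own macrophages. With age, microglia and oligodendrocytes of the mouse brain are known to take up interferon, complement and antigen-presentation genes. Interferon gamma, a cytokine of T and natural killer cells, induces class II histocompatibility genes and a family of GTPases that attack intracellular parasites. In a whole piece of tumour, fewer cells of a type and less RNA per cell of that type cannot be told apart, and this holds for every cell type named here.

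The 6 libraries held 18566096 to 23633676 reads, and 3 reads corresponded to 0.112 to 0.143 CPM. Of the genes next to the inclusion limit, the 317 that reached 1 CPM in 2 libraries had a median of 0.861 CPM and were left out, and the 300 that reached it in 3 libraries had a median of 1.07 CPM and were kept. As a check of the labelled tissue, the summed level of 12 striatal projection neuron genes was 347.7, 180.2 and 273.8 CPM in old 1, 2 and 3, against 123.1, 123.1 and 379.6 CPM in young 1, 2 and 3. The first principal component of the 6 libraries held 54.2% of the variance and set young 1 and young 2, at 38.3 and 47.6, apart from young 3 at -31.3 and from old 1, 2 and 3 at -37.0, -11.2 and -6.41. The young libraries were thus not a compact group.

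Xist, the RNA that silences 1 X chromosome in female cells, did not follow the label. It was at 1.88, 2.76 and 379.7 CPM in old 1, 2 and 3, against 202.5, 163.6 and 5.33 CPM in young 1, 2 and 3. Old 1, old 2 and young 3 therefore had under 10 CPM of an RNA that lay between 499 and 1127 CPM in the 6 treated old libraries. The Y-linked gene Ddx3y was present in all 6 untreated libraries, at 68.4, 88.4 and 86.2 CPM in old and 84.0, 91.0 and 132.4 CPM in young. The leading genes and the list medians were therefore also computed with the 3 low-Xist libraries left out, which compares old 3 with young 1 and 2, and among these 3 alone, which compares old 1 and 2 with young 3; list medians not split beside the list stand together at the end. In both splits 1 side has a single library, which is assumed to vary like the others.

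**Figure D1:**
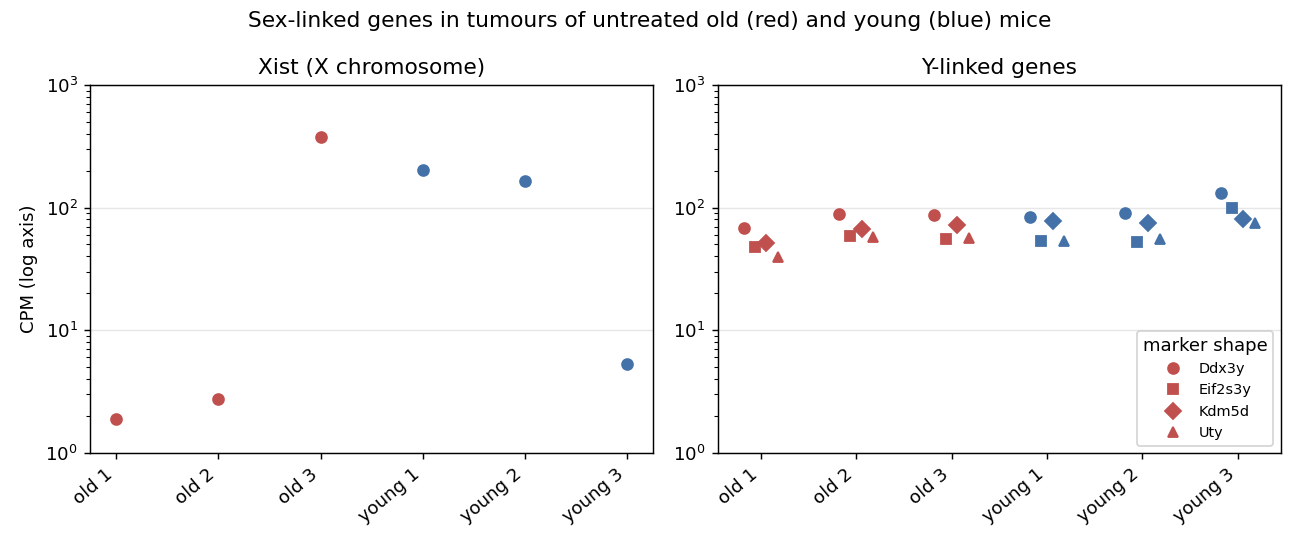
Xist (left) and 4 Y-linked genes (right) in each untreated library, in CPM on log axes, with old hosts in red and young hosts in blue. Xist was below 10 CPM in old 1, old 2 and young 3, while the Y-linked genes were present in all 6 libraries.

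No gene passed the test between tumours of old and young hosts at an adjusted p under 0.05 (limma, 0 of 14684 genes, 0.0%). The smallest adjusted p was 0.564, and 1027 genes had an unadjusted limma p under 0.05. On the higher side in old these were 695 genes (4.73%), and on the lower side 332 (2.26%). The count models differed from each other: edgeR called 0 genes, and DESeq2 called 52 as higher (0.355% of 14663) and 14 as lower in old (0.0955%). Of the 52 genes that DESeq2 called higher, 40 had their highest value in old 1, and in 17 of them 1 old library held over 50% of the sum of the 3 old values. Means on the log2(CPM + 1) scale were higher in old for 7667 genes (52.2%) and lower for 7013 (47.8%), with a median difference of 0.011. Differences were wider on the higher side, where 581 genes exceeded 1 on the log2 scale, against 32 genes under -1. The middle 90% of genes lay between -0.31 and 0.87. All 3 old libraries lay above all 3 young libraries for 967 genes (6.59%) and below them for 1002 genes (6.82%). A single gene tested alone on 3 against 3 libraries cannot go below an exact permutation p of 0.1, two-sided, and every gene whose libraries did not overlap is at that value. Because 0 genes passed in limma, the genes and groups below are given as measured values, and their differences are on the log2(CPM + 1) scale, which understates the change of genes with low values. CPM values are not scaled by gene length, so they are compared between libraries for a gene and not between genes.

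Among the 12 named genes with the smallest unadjusted p on the side higher in old, Efemp1, which encodes the extracellular matrix protein fibulin-3, was at 3.24, 2.73 and 3.69 CPM in old 1, 2 and 3, against 0.908, 0.238 and 0.384 CPM in young 1, 2 and 3. Its old values were close together and all above the highest young one, with a log2 difference of 1.5 ± 0.25 (SE; limma adjusted p = 0.564, DESeq2 adjusted p = 4.2e-05). Slc6a11, the GABA transporter of astrocytes, was at 22.9, 15.4 and 18.7 CPM in old and 4.50, 1.76 and 5.03 CPM in young, a log2 difference of 2.13 ± 0.39 (SE). Without the low-Xist libraries the differences were 1.61 for Efemp1 and 2.34 for Slc6a11, among them they were 1.52 and 1.71, and without old 1 they were 1.49 and 2.00. Igfbp5, a secreted protein that binds insulin-like growth factors, was at 1418, 309 and 116.6 CPM in old and 40.8, 21.1 and 31.8 CPM in young. All 3 old values lay above the young ones, but they spanned a wide range, and the log2 difference of 3.58 ± 0.70 (SE) was 2.61 without old 1 and 4.41 without old 3. It was 1.95 without the low-Xist libraries and 4.34 among them.

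The promoters of Slc6a11, Igfbp5 and Lif, the cytokine gene described below among the lower ones, are shown because these 3 genes had libraries without overlap and lead the results on each side. Each is the 250 bases before the start that RefSeq annotates on GRCm38.p6, 5′ to 3′ on the strand of the gene. Capitals mark the GC box GGGCGG on either strand. The TATA box (TATAAA) was also searched on both strands, as were the CCAAT box (letters as in its name) and the STAT motif (TTCNNNGAA), with no match in the 3 windows. No matches overlapped.
Slc6a11: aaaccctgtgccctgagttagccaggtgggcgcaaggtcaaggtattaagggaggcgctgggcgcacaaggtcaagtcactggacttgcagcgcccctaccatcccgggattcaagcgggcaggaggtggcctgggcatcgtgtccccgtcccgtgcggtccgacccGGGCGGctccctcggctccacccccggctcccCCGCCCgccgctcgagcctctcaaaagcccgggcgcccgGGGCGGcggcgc
Igfbp5: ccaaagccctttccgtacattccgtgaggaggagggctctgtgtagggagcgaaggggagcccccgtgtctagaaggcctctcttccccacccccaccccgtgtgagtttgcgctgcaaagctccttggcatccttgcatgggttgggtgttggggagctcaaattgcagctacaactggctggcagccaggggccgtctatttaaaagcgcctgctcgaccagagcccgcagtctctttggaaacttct
Lif: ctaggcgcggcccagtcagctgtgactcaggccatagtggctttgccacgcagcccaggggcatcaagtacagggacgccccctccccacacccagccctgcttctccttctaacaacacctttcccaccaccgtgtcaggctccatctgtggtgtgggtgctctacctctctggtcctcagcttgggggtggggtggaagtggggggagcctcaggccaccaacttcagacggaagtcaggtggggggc
The Slc6a11 window (chr6:114130991-114131240, plus strand) holds 3 GC boxes. The Igfbp5 window (chr1:72874866-72875115, minus strand) and the Lif window (chr11:4257318-4257567, plus strand) hold none of the 4 motifs. Among 27025 mouse promoter windows of the same length, 32.9% hold the GC box, 34.5% the CCAAT box, 13% the TATA box and 7.18% the STAT motif. The GC content of the 3 windows was 71.2% for Slc6a11, 58.8% for Igfbp5 and 63.6% for Lif, against a median of 52.0% over all windows.

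Bag3, a co-chaperone of selective autophagy, was at 4.69, 4.15 and 3.84 CPM in old and 1.09, 1.76 and 2.17 CPM in young, a log2 difference of 0.98 ± 0.19 (SE). Il33, an alarm cytokine released by glial cells, was at 40.3, 23.6 and 9.18 CPM in old and 5.54, 4.00 and 3.197 CPM in young. Here old 3 stood much nearer to the young libraries than old 1 did, and the difference of 2.08 was 0.83 without the low-Xist libraries and 2.93 among them. Trf, the iron carrier transferrin that oligodendrocytes make in the brain, was at 138.7, 108.9 and 74.3 CPM in old, against 48.7, 48.7 and 45.1 CPM in young. The young values of Trf were nearly equal and all old values lay above them, with a difference of 0.60 without the low-Xist libraries and 1.43 among them. Gpr34, a lipid receptor of microglia, was at 7.55, 7.73 and 6.40 CPM in old and 3.32, 2.86 and 3.79 CPM in young, and its difference of 0.93 ± 0.20 (SE) was 0.86 without the low-Xist libraries and 0.85 among them. The remaining 5 were Maf, a leucine zipper transcription factor (log2 difference 0.88), Plch2, a phospholipase C (1.81), Kcna6, a voltage-gated potassium channel (1.77), Smoc2, a matrix protein that binds calcium (1.33), and Cpne4, a copine that binds membranes in the presence of calcium (2.35). DESeq2 called 11 of the 12, all but Cpne4, against 0.355% of all genes on this side, while edgeR called 0. The 12 were picked by p in the same libraries, so this count is not separate evidence. Since the 12 were chosen for libraries that do not overlap, their direction is fixed in both Xist splits and the splits bear on size alone.

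The 5 largest differences among genes chosen by this rule were those of Igfbp5, Cers1 and 3 collagen genes, and in the collagen genes old 1 was the highest library. Col6a3, a chain of microfibrillar collagen, was at 156.6, 27.1 and 6.70 CPM in old and 5.86, 3.86 and 1.28 CPM in young. Col3a1, a fibrillar collagen of vessel walls, was at 158.3, 34.4 and 13.5 CPM in old and 7.49, 8.72 and 1.24 CPM in young. Col1a2, a chain of collagen I, was at 195.3, 32.5 and 16.9 CPM in old and 9.17, 7.19 and 2.64 CPM in young. In each of the 3 genes the libraries did not overlap and old 1 was several times above the other old libraries. The log2 differences of 2.94 for Col6a3 and 2.87 for Col1a2 were 1.80 and 1.87 without old 1, and 0.42 and 0.97 without the low-Xist libraries. Cers1, a ceramide synthase, had a difference of 3.04 but shares 1 locus on chromosome 8 with Gdf1, a growth factor of the TGF-beta family. Cers1 was at 28.4, 4.67 and 2.48 CPM in old against 0, 0 and 0.0426 CPM in young, where the young values lie under the 3-read limit. Gdf1, at -1.83 the largest difference on the lower side among named genes without overlap, was at 0, 22.4 and 21.7 CPM in old against 26.8, 26.5 and 30.0 CPM in young. The sum of both was 28.4, 27.1 and 24.2 CPM in old and 26.8, 26.5 and 30.0 CPM in young, with overlapping groups, so the split of reads between these genes is uncertain and neither difference is counted as a result about a gene.

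**Figure D2:**
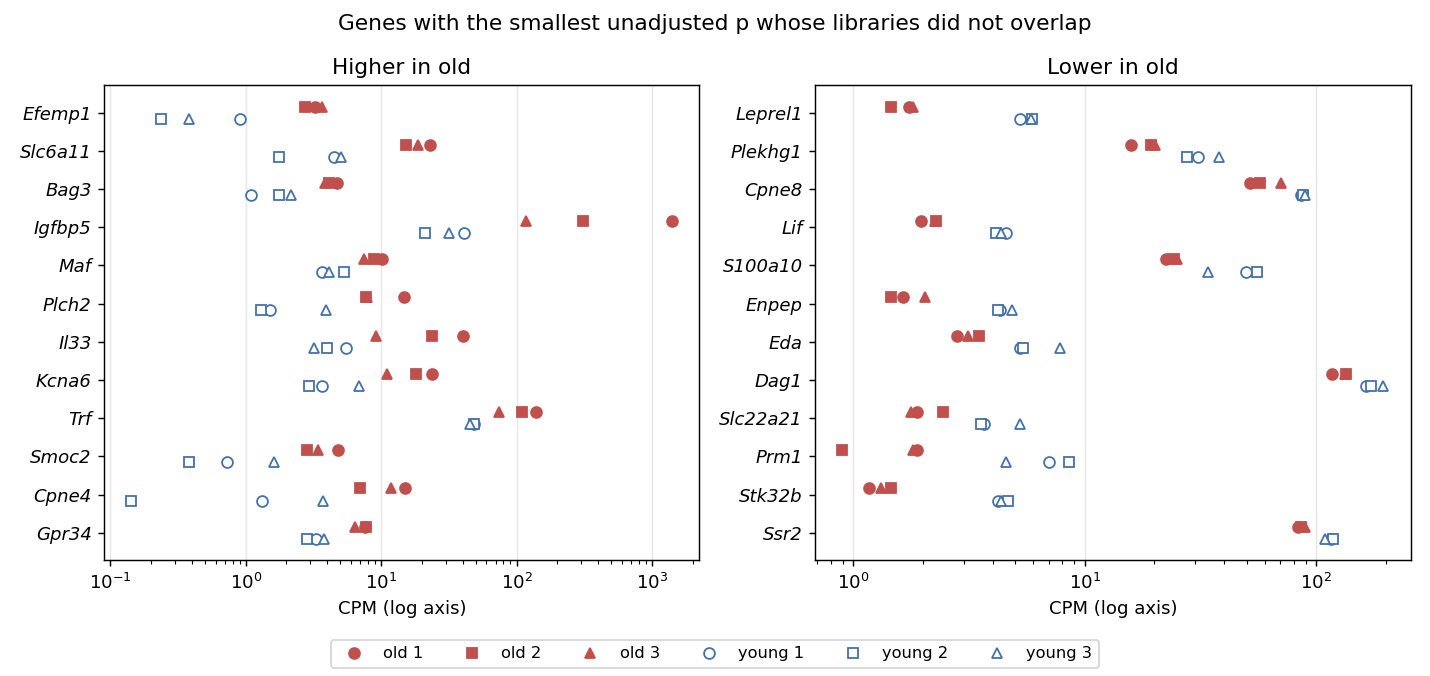
CPM on log axes of the 12 named genes with the smallest unadjusted p on each side whose libraries did not overlap; old libraries are filled red, young libraries open blue, and the shape gives the replicate. Igfbp5 and Il33 spread widely among the old libraries, while Leprel1 and Lif form a tight group on each side. Efemp1 is tight among the old libraries but not among the young ones.

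On the side of genes lower in old, Leprel1, an older symbol of the collagen prolyl hydroxylase gene P3h2, was at 1.74, 1.46 and 1.81 CPM in old against 5.27, 5.91 and 5.84 CPM in young. Both groups were tight, and the log2 difference of -1.32 ± 0.23 (SE) was -1.23 without the low-Xist libraries and -1.40 among them (limma adjusted p = 0.564, DESeq2 adjusted p = 0.0029). Lif, a cytokine that signals through STAT3, was at 1.97, 2.28 and 2.26 CPM in old and 4.59, 4.14 and 4.35 CPM in young, a log2 difference of -0.76 ± 0.16 (SE). Its difference was -0.72 without the low-Xist libraries and -0.78 among them. S100a10, the partner of annexin A2 at the cell membrane, was at 22.4, 24.3 and 25.1 CPM in old and 49.7, 55.3 and 34.2 CPM in young. The old values were close and young 3 was the lowest of the young ones. Dag1, which encodes the laminin receptor dystroglycan, was at 116.8, 134.8 and 133.0 CPM in old and 164.0, 172.9 and 195.1 CPM in young, a small log2 difference of -0.46 ± 0.10 (SE). The other lower genes of this rank were Plekhg1, a guanine nucleotide exchange factor (-0.77), Cpne8, a copine (-0.55), Enpep, an aminopeptidase that cleaves angiotensin II (-1.02), Eda, a ligand of the tumour necrosis factor family (-0.78), Slc22a21, a carnitine transporter (-0.76), Prm1, a sperm chromatin protein (-1.60), Stk32b, a kinase (-1.23), and Ssr2, a subunit of the translocon-associated complex (-0.40). DESeq2 called 11 of these 12, all but Stk32b, against 0.0955% of all genes on this side, while edgeR called 0. As on the higher side, the choice by p in the same libraries largely fixes this count. By size, Six3os1, an antisense RNA of the Six3 locus whose reads may not be separable from Six3 (-1.59), Nptx2, a neuronal pentraxin (-1.56), and Ky, a muscle peptidase gene (-1.44), also ranked among the lowest.

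For some of these genes the treated old libraries, which share the young libraries as reference, were at other levels than the untreated old ones. The treated values pool hosts given nicotinamide mononucleotide with hosts joined by parabiosis, so their medians and ranges do not describe a single treatment. Plekhg1 was at 15.9, 19.3 and 20.1 CPM in untreated old, and its 6 treated old values had a median of 34.1 CPM, against 31.0, 27.7 and 37.9 CPM in young. Nptx2 was at 1.69, 0.411 and 1.02 CPM in untreated old, with a treated old median of 4.40 CPM, against 4.09, 9.86 and 2.52 CPM in young. S100a10 was at 13.6 to 21.0 CPM in treated old libraries, with a median of 14.5 CPM, below all untreated old values. Lif had a treated old median of 1.94 CPM, but its range of 1.56 to 3.00 CPM overlapped the untreated old values. Efemp1 had a treated old median of 3.94 CPM and Slc6a11 of 41.2 CPM, both above the median of untreated old libraries. Their ranges of 3.10 to 7.24 and 17.9 to 74.5 CPM overlapped the untreated old values. Treated old values of Col6a3 (2.68 to 8.48 CPM), Col3a1 (2.02 to 17.0 CPM) and Col1a2 (8.03 to 15.9 CPM) overlapped the young ones. Those of Igfbp5, at 57.8 to 185.4 CPM, lay above the young ones.

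Gene groups were described with 45 lists, of which 44 had members kept; 0 members of any list were called by limma. Each list is given by how many members had a higher or lower mean in old, read against 52.2% and 47.8% over all genes, and by its median log2 difference, read against 0.011. Counts of members without overlap are read against 6.59% above and 6.82% below over all genes, and counts with an unadjusted p under 0.05 against 4.73% higher and 2.26% lower. A list score averages, over the genes of a list, how far a library lies from the 6-library mean on the log2 scale.

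All 16 neuronal genes had higher means in old, with a median of 1.39, and 10 of them had an unadjusted limma p under 0.05. Camk2a, the calcium-dependent kinase of excitatory synapses, was at 548.4, 365.4 and 216.0 CPM in old and 60.3, 22.1 and 271.1 CPM in young, a log2 difference of 2.27 ± 0.85 (SE). Grin1, the obligate subunit of NMDA receptors, was at 65.5, 43.5 and 38.6 CPM in old and 10.0, 5.62 and 50.4 CPM in young. In both genes young 3 lay inside the range of the old libraries and young 1 and 2 far below it. Snap25, a synaptic vesicle fusion protein, showed the same order, at 309.4, 198.4 and 153.9 CPM in old and 45.7, 30.3 and 248.0 CPM in young. Nefm, a neurofilament subunit, was 1 of 2 members whose libraries did not overlap, at 15.9, 16.9 and 8.92 CPM in old and 3.45, 3.24 and 8.61 CPM in young, although old 3 and young 3 nearly met. The neuronal score was 1.04, 0.48 and 0.41 in old and -1.09, -1.46 and 0.62 in young. The list median was 1.94 without young 3, 1.79 without the low-Xist libraries and 0.08 among them.

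Striatal projection neuron genes were higher for 12 of 12 members, with a median of 0.77 and libraries that overlapped in every one. Pdyn, which encodes the opioid precursor of the direct pathway, was at 4.27, 3.36 and 4.03 CPM in old and 1.27, 0.143 and 3.84 CPM in young. Bcl11b, a transcription factor of these neurons, was at 30.1, 12.8 and 32.0 CPM in old and 5.59, 5.62 and 32.5 CPM in young. Young 3 again matched the old libraries, and the list median was 1.73 without the low-Xist libraries and -0.44 among them. Genes of GABA uptake and breakdown were higher for 5 of 6 members, with a median of 0.85. Slc6a13, a GABA and taurine transporter of the meninges, was at 1.69, 1.12 and 1.47 CPM in old and 0.227, 0.0476 and 0.597 CPM in young. As in Slc6a11, its old libraries all lay above the young ones. Voltage-gated channels and other channels of neurons and glia were higher for 11 of 13 members (median 0.82), led by Kcna1, an axonal potassium channel, at a log2 difference of 1.71. Kcnj10, the potassium channel of astrocytes, went the other way, at 243.9, 356.9 and 257.0 CPM in old and 358.3, 365.8 and 385.6 CPM in young.

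The 2 lists of the oligodendrocyte lineage, myelin genes and precursor genes, had medians of opposite sign. Whether injected or host cells gave these reads was not tested. Myelin genes were higher in old for 11 of 14 members, with a median of 0.92 and 5 members without overlap, while precursor genes were lower for 12 of 12, with a median of -0.28 and 1 member without overlap, which is near the 6.82% of all genes. Ugt8a, which makes the myelin lipid galactosylceramide, was at 8.82, 5.34 and 6.89 CPM in old and 2.45, 1.14 and 3.15 CPM in young. Ermn, a cytoskeletal protein of mature oligodendrocytes, was at 16.7, 13.3 and 9.75 CPM in old and 2.95, 3.00 and 9.25 CPM in young. Mbp, the myelin basic protein gene, overlapped, at 297.4, 239.9 and 217.9 CPM in old and 113.9, 64.6 and 341.3 CPM in young. Sox10, a transcription factor of the whole lineage and 1 of the precursor markers, was at 11.0, 12.0 and 11.3 CPM in old and 22.4, 14.2 and 32.8 CPM in young. The myelin median was 1.05 without the low-Xist libraries and 0.41 among them, and the precursor median was -0.57 and -0.42 in the same splits. The precursor median was -0.08 without old 3. The myelin score was 0.70, 0.42 and 0.09 in old and -0.60, -1.0 and 0.39 in young, lowest in the same 2 young libraries as the neuronal score, and the part of both in the other results was not tested.

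**Figure D3:**
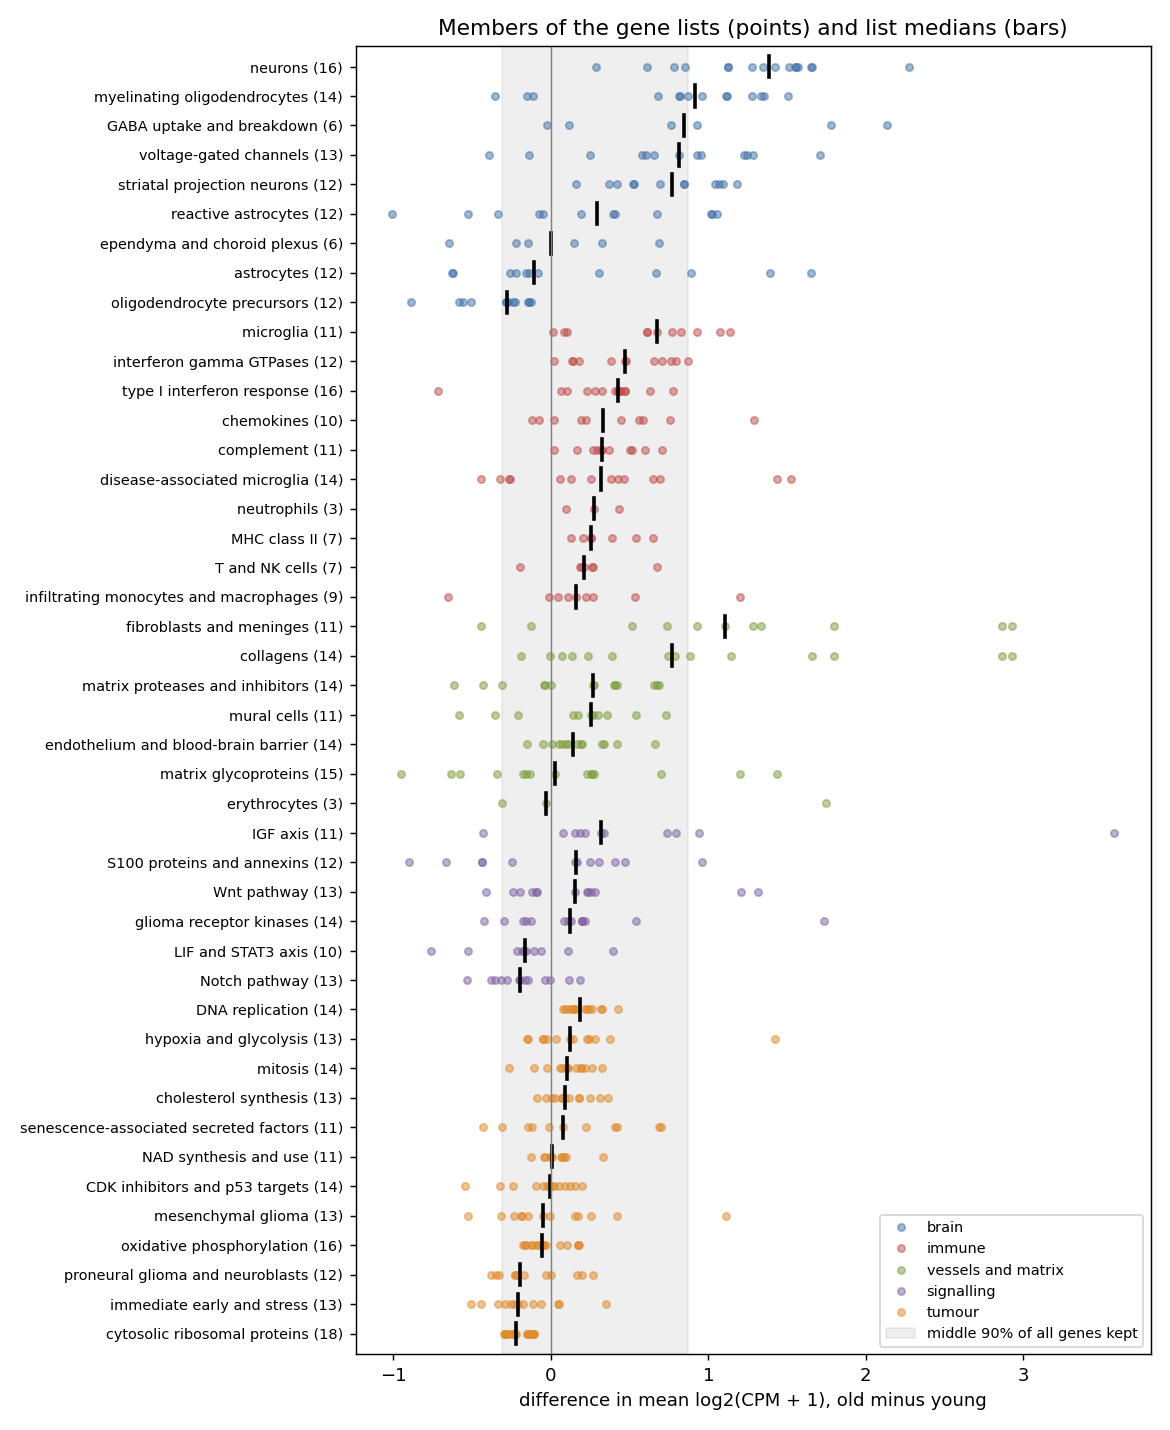
Difference in mean log2(CPM + 1), old minus young, of each list member (points, coloured by group of lists) and the list medians (black bars), with the number of genes kept in brackets; the grey band holds the middle 90% of all genes. The neuronal and fibroblast lists have the highest medians, at 1.39 and 1.10, Igfbp5 lies furthest right at 3.58, and all 12 precursor and all 18 ribosomal genes lie left of 0.

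Astrocyte genes did not share a direction, with 5 of 12 members higher and a median of -0.11. Gja1, the gap junction protein connexin 43, was at 44.0, 24.4 and 37.7 CPM in old and 9.81, 7.29 and 14.8 CPM in young, without overlap. Aldh1l1, a folate enzyme used as a marker of mature astrocytes, was at 33.1, 28.4 and 20.6 CPM in old and 14.6, 11.9 and 15.9 CPM in young. The water channel gene Aqp4 was at 128.3, 158.9 and 181.3 CPM in old and 180.1, 256.7 and 291.9 CPM in young. Gfap, the intermediate filament of astrocytes and of many gliomas, was at 1367, 1732 and 1453 CPM in old and 1789, 1959 and 3601 CPM in young. Gja1, Aldh1l1 and Slc6a11 were thus higher in old while Gfap, Aqp4 and Kcnj10 were lower. Reactive astrocyte genes were higher for 7 of 12 members (median 0.30). Ependymal and choroid plexus genes had a median of 0.004; Ttr, the choroid plexus product transthyretin, was at 1.92, 1.57 and 10.8 CPM in old and 1.04, 0.429 and 115.4 CPM in young, and the high value of young 3 decided the sign of its difference.

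Microglial genes had higher means in old for 11 of 11 members, with a median of 0.67, 7 members with an unadjusted p under 0.05 (4.73% of all genes on this side) and 4 without overlap (6.59% of all genes). P2ry12, the purinergic receptor of homeostatic microglia, was at 14.2, 11.4 and 6.44 CPM in old and 3.77, 2.71 and 6.35 CPM in young. Cx3cr1, the fractalkine receptor, was at 42.5, 40.4 and 23.8 CPM in old and 18.9, 20.2 and 18.0 CPM in young. In both genes old 3 was the lowest old library, and the list median was 0.08 without the low-Xist libraries and 0.90 among them. Disease-associated microglial genes were higher for 10 of 14 members (median 0.32). Cst7, a protease inhibitor of activated microglia, was at 10.5, 16.4 and 5.46 CPM in old and 2.68, 1.81 and 4.26 CPM in young, and Trem2, a lipid receptor of these cells, was at 11.4, 15.2 and 9.82 CPM in old and 7.54, 7.95 and 5.71 CPM in young. Apoe, a lipid carrier that astrocytes and tumour cells also make, was lower, at 901.7, 1490 and 1149 CPM in old and 1512, 1695 and 1526 CPM in young. The disease-associated median was -0.38 without the low-Xist libraries and 1.02 among them. Spp1, the secreted protein osteopontin, was at 295.5, 80.1 and 133.3 CPM in old and 44.5, 43.8 and 78.9 CPM in young.

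Antigen presentation and interferon genes differed mainly between individual tumours of each age. Cd74, the invariant chain that loads class II molecules, was at 218.7, 245.0 and 12.7 CPM in old and 260.2, 244.2 and 2.00 CPM in young. H2-Aa, a class II alpha chain, was at 93.0, 119.1 and 3.80 CPM in old and 115.8, 107.7 and 0.384 CPM in young. Old 3 and young 3 were low and the other 4 libraries alike, so each age held 2 high tumours and 1 low one. The class II score was 1.15, 1.41 and -2.05 in old and 1.42, 1.24 and -3.18 in young. The list median of 0.26, with 7 of 7 members higher, came with means over a low and 2 high libraries: it was -1.48 without young 3 and 1.55 without old 3. Interferon gamma GTPases followed the same order, with scores of 1.06, 1.09 and -1.45 in old and 0.95, 0.42 and -2.07 in young, 12 of 12 members higher and a median of 0.47. Among them, Iigp1 was at 147.5, 131.9 and 13 CPM in old and 110.9, 70.9 and 5.63 CPM in young. Their median was -0.45 without young 3, -2.17 without the low-Xist libraries and 3.43 among them. Type I interferon genes were higher for 15 of 16 members (median 0.43) and complement genes for 11 of 11 (median 0.32), again with the lowest scores in young 3 and old 3. The low scores did not go with Xist, since old 3 had high and young 3 low Xist.

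Lymphocyte markers had low summed levels. T and natural killer cell genes kept 7 of 14 listed members, 6 of them higher (median 0.21), and Cd8a, the coreceptor of cytotoxic T cells, was at 2.53, 2.32 and 1.66 CPM in old and 2.95, 2.76 and 2.13 CPM in young. The sum of the 13 list members with a row was 20.1, 17.3 and 9.60 CPM in old and 15.4, 12.2 and 7.03 CPM in young, lowest in the 2 tumours with low class II scores. Their part in the class II and interferon values was not tested. No B or plasma cell marker passed the inclusion limit, and the sum of the 6 with a row was 0.938 to 6.05 CPM. Of neutrophil markers 3 of 8 were kept, all with higher means in old (median 0.28), and of monocyte and macrophage markers 9 of 12, 7 of them higher (median 0.16). The summed level of the monocyte and macrophage list was 2651, 851.0 and 510.6 CPM in old and 654.8, 614.4 and 298.5 CPM in young, most of it from Fn1, the fibronectin gene that fibroblasts also express. Chemokine genes were higher for 8 of 10 members (median 0.33). Cxcl12, which guides immune and precursor cells along vessels and meninges, was 1 of 2 members without overlap, at 8.77, 6.02 and 6.66 CPM in old and 3.00, 1.76 and 2.26 CPM in young, a log2 difference of 1.29 ± 0.29 (SE; limma adjusted p = 0.564, DESeq2 adjusted p = 0.0085).

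**Figure D4:**
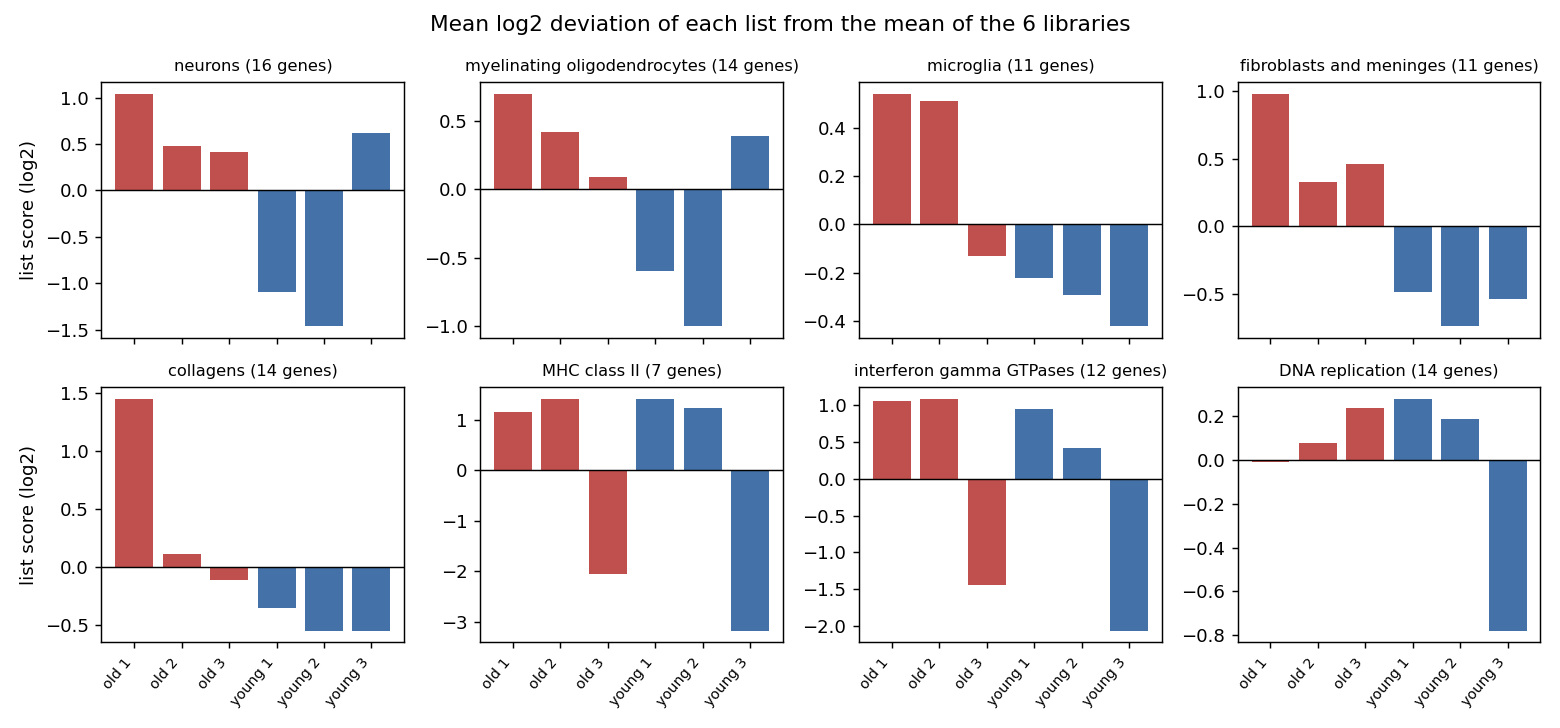
List scores (log2 distance from the 6-library mean, averaged over genes) of 8 gene lists in each library, old in red and young in blue, each panel with its own scale. Class II and interferon gamma scores were low in old 3 and young 3, neuronal and myelin scores were low in young 1 and young 2, and the collagen score of old 1 was 1.45.

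Fibroblast and meningeal genes were higher for 9 of 11 members, with a median of 1.10 and 7 members without overlap. Their score was 0.98, 0.33 and 0.46 in old and -0.49, -0.74 and -0.54 in young, so all old tumours lay above all young ones on this measure. The summed level of the 13 members with a row overlapped, at 905.4, 471.7 and 383.1 CPM in old and 332.8, 324.2 and 482.1 CPM in young. The list median stayed between 0.87 and 1.22 with each library left out in turn. It was 0.99 without the low-Xist libraries and 0.60 among them. Collagen genes, which share 3 members with this list, were higher for 12 of 14 (median 0.77), with scores of 1.45, 0.11 and -0.11 in old and -0.35, -0.55 and -0.55 in young; without old 1 the median was 0.29. Col1a1, the other chain of collagen I, was at 82.5, 15.1 and 17.7 CPM in old and 11.7, 6.05 and 5.67 CPM in young. Matrix glycoproteins were split, with 8 of 15 higher and a median of 0.03. Fn1, the fibronectin gene, was at 2532, 759.8 and 432.2 CPM in old and 554.3, 506.8 and 241.1 CPM in young, while Tnc, the tenascin gene of glioma matrix, was at 12.8, 11.0 and 19.6 CPM in old and 33.2, 40.2 and 16.5 CPM in young. Sparc, a matricellular glycoprotein, was at 485.7, 466.7 and 403.5 CPM in old and 500.3, 607.8 and 1128 CPM in young. Matrix proteases and their inhibitors were higher for 9 of 14 members (median 0.27), and Plat, the tissue plasminogen activator, was lower without overlap, at 45.5, 60.1 and 53.5 CPM in old and 65.8, 79.1 and 102.7 CPM in young.

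Vessel lists had small medians. Endothelial and barrier genes were higher for 12 of 14 members with a median of 0.14, and mural cell genes for 8 of 11 with a median of 0.26. Pecam1, an endothelial adhesion molecule, was at 24.4, 19.8 and 14.4 CPM in old and 22.4, 22.2 and 12.5 CPM in young. Abcb1a, the drug efflux pump of the barrier, was higher without overlap, at 16.5, 14.2 and 17.1 CPM in old and 11.5, 7.67 and 10.2 CPM in young. The endothelial median was -0.04 without young 3 and -0.01 without old 1. Of 5 erythrocyte genes 3 were kept, and the 5 summed to 25.0, 19.6 and 18.6 CPM in old and 54.4, 19.5 and 7.46 CPM in young.

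Among growth factor pathways, the insulin-like growth factor axis was higher for 10 of 11 members, with a median of 0.32. Without overlap, 4 members were higher in old and 1 was lower. Besides Igfbp5, the receptor gene Igf1r was at 123.1, 136.5 and 150.2 CPM in old and 113.2, 100.8 and 113.0 CPM in young, without overlap but with a small difference of 0.32 ± 0.13 (SE). Receptor kinases of glioma were higher for 9 of 14 members (median 0.12). Egfr, the epidermal growth factor receptor, was at 124.0, 145.5 and 145.2 CPM in old and 209.8, 196.0 and 155.4 CPM in young. Ntrk2, the receptor of brain-derived neurotrophic factor, was at 171.7, 98.9 and 99.8 CPM in old and 27.7, 15.9 and 96.5 CPM in young, with young 3 just below the old libraries. S100 proteins and annexins were higher for 7 of 12 members (median 0.16), with S100a10 among the 5 lower ones. Wnt pathway genes were higher for 7 of 13 (median 0.16), and Sfrp1, a secreted Wnt antagonist, was at 4.93, 2.99 and 4.48 CPM in old and 0.636, 0.476 and 2.47 CPM in young.

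The LIF and STAT3 axis was lower for 8 of 10 members, with a median of -0.16 and 3 members without overlap. Besides Lif, the transcription factor gene Stat3 was at 187.7, 194.1 and 178.7 CPM in old and 208.6, 203.6 and 225.4 CPM in young. Socs3, a feedback inhibitor of STAT3 signalling, was at 24.0, 18.3 and 17.9 CPM in old and 26.4, 22.3 and 41.4 CPM in young. The activity of the pathway was not measured. Stat3 did not overlap and Socs3 did. The list median was -0.40 without the low-Xist libraries and -0.18 among them. The Notch pathway, which keeps neural progenitors undifferentiated, was lower for 11 of 13 members, with a median of -0.19 and 4 members without overlap. Its targets Hey1, a transcriptional repressor, at 39.9, 44.0 and 43.9 CPM in old and 47.1, 52.6 and 56.2 CPM in young, and Nrarp, a feedback regulator, at 41.5, 44.8 and 55.7 CPM in old and 63.7, 72.3 and 69.4 CPM in young, were 2 of these 4. The list median was -0.18 without the low-Xist libraries and -0.26 among them. Proneural glioma and neuroblast genes were lower for 9 of 12 members (median -0.19), and Sox2, a stem cell transcription factor, was at 135.4, 167.4 and 177.4 CPM in old and 185.4, 204.2 and 219.7 CPM in young. Mesenchymal glioma genes were lower for 8 of 13 (median -0.05).

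Lists of cell division genes had small medians. DNA replication genes were higher in old for 14 of 14 members, with a median of 0.18, but no member was without overlap, and the median was -0.15 without young 3. Rrm2, which makes deoxynucleotides, was at 148.0, 156.3 and 189.7 CPM in old and 158.3, 145.5 and 78.2 CPM in young. Mki67, a marker of cycling cells, was at 588.5, 586.4 and 643.1 CPM in old and 711.9, 661.4 and 406.1 CPM in young. Young 3 was low in both genes and the other young tumours lay near or above the old ones. Mitosis genes were higher for 11 of 14 members (median 0.10), and -0.19 was their median without young 3. CDK inhibitors and p53 targets were even, with 7 of 14 higher and a median of -0.002. Cdkn2a, which encodes p16 and the ARF protein, was at 47.3, 33.3 and 29.6 CPM in old and 47.6, 44.9 and 36.6 CPM in young, and Cdkn1a, which encodes p21, was at 21.2, 28.1 and 21.8 CPM in old and 23.4, 23.3 and 47.9 CPM in young. Secreted factors linked to senescence were higher for 6 of 11 members (median 0.08).

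Metabolic lists lay near 0. NAD synthesis and use genes were higher for 7 of 11 members with a median of 0.01, and Nampt, which makes nicotinamide mononucleotide from nicotinamide, was at 120.3, 127.9 and 109.4 CPM in old and 127.4, 129.4 and 83.3 CPM in young. Oxidative phosphorylation genes were lower for 11 of 16 members (median -0.06), hypoxia and glycolysis genes were higher for 8 of 13 (median 0.12), and cholesterol synthesis genes were higher for 11 of 13 (median 0.09). Cytosolic ribosomal protein genes were lower for 18 of 18 members, with a median of -0.22 and no member without overlap. Rpl11, of the large subunit, was at 229.0, 260.3 and 271.7 CPM in old and 343.9, 342.5 and 249.5 CPM in young, with young 3 inside the old range. Immediate early and stress genes were lower for 10 of 13 members (median -0.21), and Fos, a transcription factor induced by stimulation, was at 25.1, 29.5 and 35.2 CPM in old and 42.0, 48.0 and 38.0 CPM in young, without overlap.

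Of the 44 list medians, 17 had the other sign without the low-Xist libraries and 10 had it among them. Fibroblast and meningeal, collagen, myelin, neuronal, microglial and insulin-like growth factor lists had medians above 0 in both, although the neuronal median was near 0 among the low-Xist libraries and the microglial one near 0 without them. Precursor, LIF and STAT3, Notch and proneural lists had medians below 0 in both, the proneural one at -0.01 without the low-Xist libraries. The class II, interferon gamma, type I interferon and complement lists had medians of -4.21, -2.17, -0.65 and -0.60 without the low-Xist libraries. Among these libraries the medians were 5.22, 3.43, 1.49 and 1.43. Old 3 is the only old library of the former split, and young 3 the only young library of the latter. Both had the lowest scores in these lists, which gives this order of signs whatever the part of Xist.

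Other lists also had a median below 0 without the low-Xist libraries and above 0 among them, given in that order for each list. A list low in both old 3 and young 3 takes this order, and a list high in both takes the opposite one. Endothelial scores, for example, were lowest in old 3 and young 3, at -0.24 and -0.37. Ribosomal scores were not, at -0.01 in old 3 and -0.29 in old 1. The splits therefore cannot show whether Xist class changes the age difference. It was -0.36 and 0.72 for endothelium, -0.17 and 0.48 for mural cells, -0.24 and 0.65 for monocytes and macrophages, and -0.14 and 0.42 for T and natural killer cells. It was -0.07 and 0.23 for matrix proteases, -0.29 and 0.11 for matrix glycoproteins, -0.03 and 1.29 for erythrocytes, and -0.44 and 0.58 for hypoxia and glycolysis. Secreted senescence factors were at -0.22 and 0.72, glioma receptor kinases at -0.14 and 0.36, the Wnt pathway at -0.08 and 0.21, and mesenchymal glioma at -0.33 and 0.19. Ribosomal proteins were at -0.25 and 0.06, immediate early and stress genes at -0.27 and 0.14, and CDK inhibitors at -0.001 and 0.08. The opposite order was seen for ependyma at 0.86 and -1.08, reactive astrocytes at 0.57 and -0.07, astrocytes at 0.003 and -0.16, and cholesterol synthesis at 0.18 and -0.16. Medians above 0 in both were those of GABA uptake at 1.33 and 0.11, channels at 0.91 and 0.07, collagens at 0.54 and 0.90, insulin-like growth factors at 0.17 and 0.49, and neutrophils at 0.22 and 0.33. Chemokines at 0.03 and 1.06, mitosis at 0.01 and 0.67, DNA replication at 0.001 and 0.94, and NAD genes at 0.06 and 0.06 were also above 0 in both. S100 proteins and annexins, at -0.42 and -0.23, proneural glioma and neuroblasts, at -0.01 and -0.42, and oxidative phosphorylation, at -0.03 in both, were below 0 in both.

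**Figure D5:**
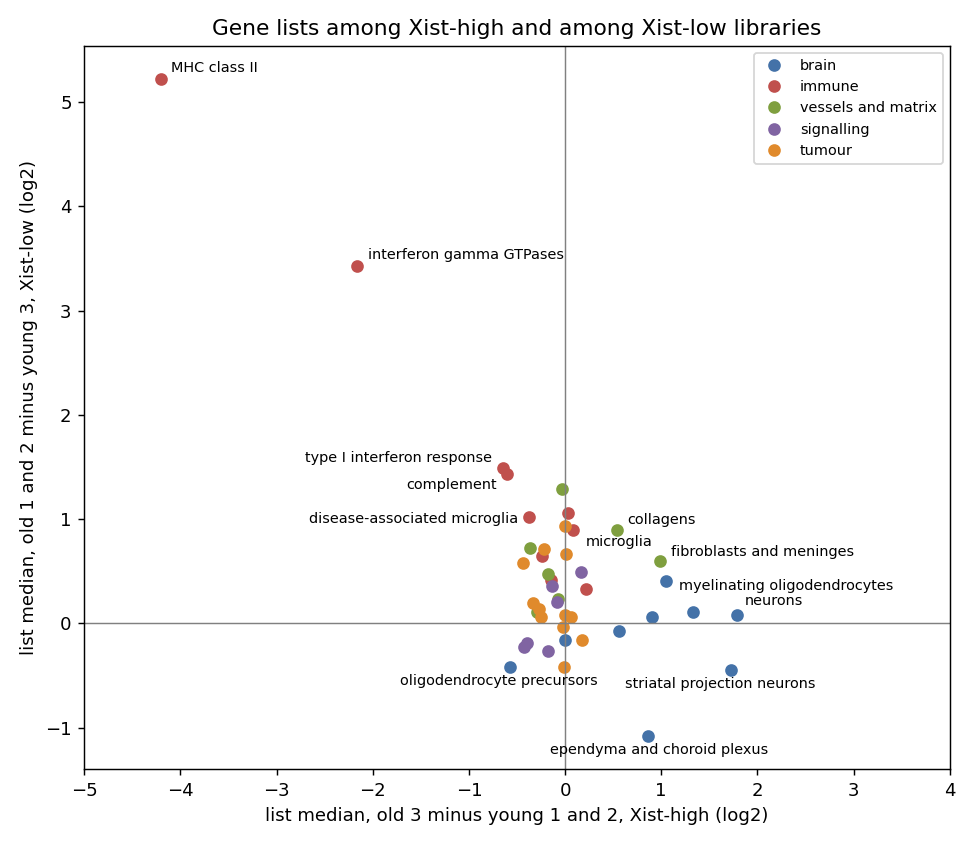
List medians (log2, old minus young) among libraries with high Xist, old 3 against young 1 and 2 (horizontal axis), and among those with low Xist, old 1 and 2 against young 3 (vertical axis), 1 point per list. Class II and interferon gamma lists, whose scores were lowest in old 3 and young 3, lie at upper left with opposite signs. Fibroblast, collagen and myelin lists lie at upper right.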

How the data were processed

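RNA of brain tumours was sequenced from 12 mice, 3 in each of 4 groups; the 3 untreated old and the 3 untreated young libraries were compared. Per the labels' protocols, libraries were stranded, depleted of ribosomal RNA and read from both ends. The submitters' processing notes name edgeR, RSEM 1.2.15, Bowtie2 2.1.0 and FastQC, and the builds GRCm38 and mm10. The authors deposited CPM values scaled with TMM factors, with gene symbols. Because RSEM divides reads among genes of similar sequence, near-identical and overlapping genes have uncertain values. The values were whole multiples of 1 read in 100% of cases at a tolerance of 0.01; these reads entered edgeR 4.0.16 (quasi-likelihood) and DESeq2 1.42.0 as alternatives.

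A gene entered the test if 3 or more of the 6 libraries reached 1 CPM. The fit of log2(CPM + 1) used limma 3.58.1 in R 4.3.3, with trended variance and 1 mean for each of the 4 groups over all 12 libraries. Two-sided p-values received a Benjamini-Hochberg adjustment over every gene tested, and genes were called under 0.05. On simulated data with the observed spread, this fit recovered 50% of genes changed 2-fold and 88% of those changed 4-fold, with 5 false calls. The changed genes were drawn from those with a mean above 5 CPM, and genes were simulated independently. Recovery is therefore not known for genes with lower values or for shifts shared by many genes. Each library is taken as 1 mouse. Reads of libraries of the same group were also compared in pairs by a chi-square per degree of freedom, which is lower for more similar libraries. It was 5.15 for young 1 and young 2, against 24.57 to 127.66 for all other pairs within the groups. Whether young 1 and young 2 are independent tumours was not tested.

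Named genes were the 12 with the smallest unadjusted p and the 5 with the largest difference per side among named genes whose libraries did not overlap and whose higher mean was at least 2 CPM, up to 4 members per list by p, members that define a list, and 16 genes always given. Some genes that this rule named are not reported here. The comparison, the lists and this rule were chosen with earlier results of these data known. The lists hold 573 entries, of which 571 had a row and 520 were kept. The exact permutation test served single genes. Sequencing batches are not given in the sources used here. The SE values come from the limma fit and hold the spread between libraries, while the read limits cover counting error only.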

Additional observations from a re-analysis of the deposited data

How the results depend on the processing

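The count of genes called in limma was 0 with pseudocounts of 0.25 and 0.5 CPM, without a filter, with each of the other filters, with the 6 untreated libraries alone, with quantile normalization, without the low-Xist libraries and with an Xist term, and also 0 in edgeR. DESeq2 called 66. Leaving out 1 library at a time gave 0 to 2 genes. The 2 came without young 3 and were Slc26a1 and Zbtb8b, and 2 others, Col20a1 and Rgs5, were called among the low-Xist libraries; these 4 are named after their values were seen. That split and the Xist term were chosen after seeing the data. The cause of these differences was not tested. With the replicate number as a block, 0 genes were called. Same-numbered libraries correlated at -0.11, 0.25 and -0.03 in their deviations, and differently numbered ones between -0.33 and 0.30. These values gave no sign that the numbers pair the samples, but so few of them cannot exclude it.

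Of the 85 genes named in the comparison, 77 kept their direction in all 6 fits with a library left out, as did 28 of 44 list medians. For the 61 of them whose libraries do not overlap this is fixed by that choice, and of the other 24 genes 16 kept it. The ranges of the other 8 were -1.79 to 1.39 for Ttr, -1.48 to 2.01 for Cd74, -1.57 to 2.03 for H2-Aa, -0.46 to 1.90 for Iigp1, -0.49 to 0.011 for Cdkn1a, -0.11 to 0.21 for Nampt, -0.18 to 0.22 for Mki67 and -0.21 to 0.25 for Pecam1. Signs also turned without the low-Xist libraries for Ttr (2.79), Fn1 (-0.29), Cd74 (-4.21), H2-Aa (-4.55), Iigp1 (-2.68), Nampt (-0.23), Mki67 (-0.093), Pecam1 (-0.60) and Xist (1.06), and among them for Pdyn (-0.013), Bcl11b (-0.69), Cdkn2a (0.12), Snap25 (-0.001), Mbp (-0.35) and Cd8a (0.13). Cd74 was at -0.072 in edgeR and -0.058 in DESeq2, H2-Aa at -0.036 and -0.023, Xist at 0.075 and 0.093 and, with an Xist term, 0.057, and Pecam1 at -0.027 with quantile normalization. Quantile normalization moved the median of all genes to -0.05 and turned 7 list medians. Depth limits genes near 1 CPM, where 3 reads are 0.112 to 0.143 CPM.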
